A study of Mus musculus with 39 samples.

Results

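The genes described here control CDK1, the kinase whose activity with cyclin B drives a mouse oocyte into and out of the meiotic arrests. They were chosen by name as 10 genes: Mos, Wee1, Wee2, Fbxo43, Fbxo5, Pkmyt1, Cdc25a, Cdc25b, Cdc25c and Gpr3. On the Whole Mouse Genome 44 K array, 11 of 41174 probes carried a transcript accession that the RefSeq mouse annotation assigns to 8 of them, out of 16535 genes named in this way. No probe was matched to Fbxo43 or Pkmyt1, which were not analysed here. Cdc25b had 3 probes, Cdc25c had 2 and each of the other 6 genes had 1, and all 11 passed the filter on low intensity.

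A fully grown oocyte waits in the prophase of the first meiotic division, where the receptor GPR3 keeps cyclic AMP and protein kinase A high. Protein kinase A favours WEE2 (also called WEE1B), which with WEE1 and PKMYT1 places inhibitory phosphates on CDK1, and restrains CDC25 phosphatases, which take them off. After ovulation the egg waits again, at metaphase of the second division, under cytostatic factor: MOS starts a MAP kinase cascade, and the F-box protein encoded by Fbxo43 (EMI2) blocks the anaphase-promoting complex, as its relative encoded by Fbxo5 (EMI1) does in mitotic cycles. Fertilization ends that arrest, and the embryo then replaces maternal transcripts by its own.

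All samples came from (B6xDBA/2)F1 mice, and one array was hybridized per sample. The OC group (7 arrays) was unfertilized oocytes at metaphase II from superovulated females, the stage held by cytostatic factor, and the Cumulus group (4 arrays) was the cumulus cells that served as nuclear donors. The 2-cell groups were embryos from in vitro fertilization (IVF, 6 arrays), embryos from somatic cell nuclear transfer (SCNT) of a cumulus nucleus into an enucleated oocyte without (TSA(-), 8 arrays) or with 5 nM of trichostatin A (TSA(+), 6 arrays), an inhibitor of histone deacetylases, and SCNT embryos injected with mRNA of the transcription factor Spi-C at 1.0 or 0.1 mg/ml (4 arrays each, together Spi-C NT). Trichostatin A was present for 8 h from activation, and the embryos were collected later, at the 2-cell stage. Each RNA came from a pool, of 10 oocytes or embryos or of cumulus cells, so cells within a pool were not resolved. An SCNT embryo keeps the cytoplasm of the recipient oocyte. In pooled samples, fewer cells with a transcript and less transcript per cell cannot be told apart. Nothing states that the pools came from separate sets of animals, so the p-values measure the spread between arrays only.

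Levels are log2 intensities relative to the 75th percentile of the same array, so a level of 0 lies at that percentile and an amount per embryo is not given. A probe was called changed when limma gave an adjusted p under 0.01 over the 39517 probes tested. The share of probes well above background was 48.7 to 60.01% on OC arrays, 66.9 to 77.6% on those of the 5 groups of 2-cell embryos and 58.3 to 65.8% on Cumulus arrays, and arrays of 1 group correlated with each other at 0.94 to 0.97 over all probes. Of 8 oocyte markers listed, 7 were measured and all of these were well above background on every OC and embryo array, against 1 on every Cumulus array, while the summed level of 10 cumulus and granulosa markers was 8.18 to 8.27 on Cumulus arrays and at most 2.00 on any other. OC, IVF and TSA arrays were scanned over 5 days with the groups mixed. The Cumulus arrays and the Spi-C NT arrays were each scanned on a day of their own, with a later scanner model and software version, so that batch and group cannot be told apart in any comparison with them.

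Promoters in the RefSeq table are shown for 5 of the 10 genes, which were not chosen by their levels. These 5 differed from each other in the donor cells. Wee2 and Gpr3 were not well above background on any Cumulus array, and Fbxo5, Cdc25a and the leading Cdc25b probe were on all 4. A chromosome was left out when the windows were printed. Promoters of the other genes, Cdc25c among them, are not shown, and the matches below do not cover them. Each sequence is the 250 bases before the annotated start, 5′ to 3′. Capitals mark matches on either strand. The letters searched were CCAAT, the box bound by NF-Y. The E-box was searched as CANNTG. The E2F-type sites were TTTGGCGC and, as a separate search, TTTCGCGC. The core of the CHR element, a cell cycle element, was searched as TTTGAA.
Wee2, GRCm38.p6, chr6:40442613-40442862, plus strand: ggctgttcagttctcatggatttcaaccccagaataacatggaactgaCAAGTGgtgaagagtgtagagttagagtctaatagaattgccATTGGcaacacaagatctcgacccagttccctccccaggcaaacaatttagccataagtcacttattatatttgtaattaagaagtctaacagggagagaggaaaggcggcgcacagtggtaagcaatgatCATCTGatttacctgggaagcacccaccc
Gpr3, GRCm38.p6, chr4:133212537-133212786, minus strand: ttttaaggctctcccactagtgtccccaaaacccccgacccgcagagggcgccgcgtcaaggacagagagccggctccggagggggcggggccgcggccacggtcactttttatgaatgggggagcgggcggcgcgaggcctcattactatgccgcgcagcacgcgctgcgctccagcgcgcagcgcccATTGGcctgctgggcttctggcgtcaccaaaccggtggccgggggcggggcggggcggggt
Fbxo5, GRCm38.p6, chr10:5805466-5805715, minus strand: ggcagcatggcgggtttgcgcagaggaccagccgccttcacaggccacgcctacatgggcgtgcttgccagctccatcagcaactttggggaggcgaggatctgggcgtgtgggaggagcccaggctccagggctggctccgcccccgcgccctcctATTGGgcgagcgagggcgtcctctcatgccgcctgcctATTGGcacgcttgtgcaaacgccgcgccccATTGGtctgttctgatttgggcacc
Cdc25a, GRCm38.p6, chr9:109875329-109875578, plus strand: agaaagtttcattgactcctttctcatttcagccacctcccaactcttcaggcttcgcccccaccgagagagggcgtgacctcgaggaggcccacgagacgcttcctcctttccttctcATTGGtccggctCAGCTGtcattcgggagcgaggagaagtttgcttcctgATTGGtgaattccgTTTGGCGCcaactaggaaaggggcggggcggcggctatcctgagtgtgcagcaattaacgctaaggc
Cdc25b, GRCm38.p6, chr2:131186698-131186947, plus strand: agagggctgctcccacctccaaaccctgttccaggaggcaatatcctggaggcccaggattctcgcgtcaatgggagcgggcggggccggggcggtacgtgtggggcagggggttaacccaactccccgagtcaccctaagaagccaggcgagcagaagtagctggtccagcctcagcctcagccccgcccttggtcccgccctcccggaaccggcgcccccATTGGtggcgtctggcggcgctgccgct
CCAAT was found in each of these 5 promoters, once in Wee2, Gpr3 and Cdc25b, 2 times in Cdc25a and 3 times in Fbxo5, and in 33.8% of the 32851 promoters of this length in the table. CANNTG was found 2 times in Wee2 and once in Cdc25a, against 66.2% of all promoters. TTTGGCGC was found in Cdc25a, against 0.417%, and TTTCGCGC (0.256%) and TTTGAA (16%) in none of the 5. The Wee2 window had a GC content of 44.4%, and the others lay between 56.4 and 70.8%. These matches describe the letters of the windows.

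**Figure D1:**
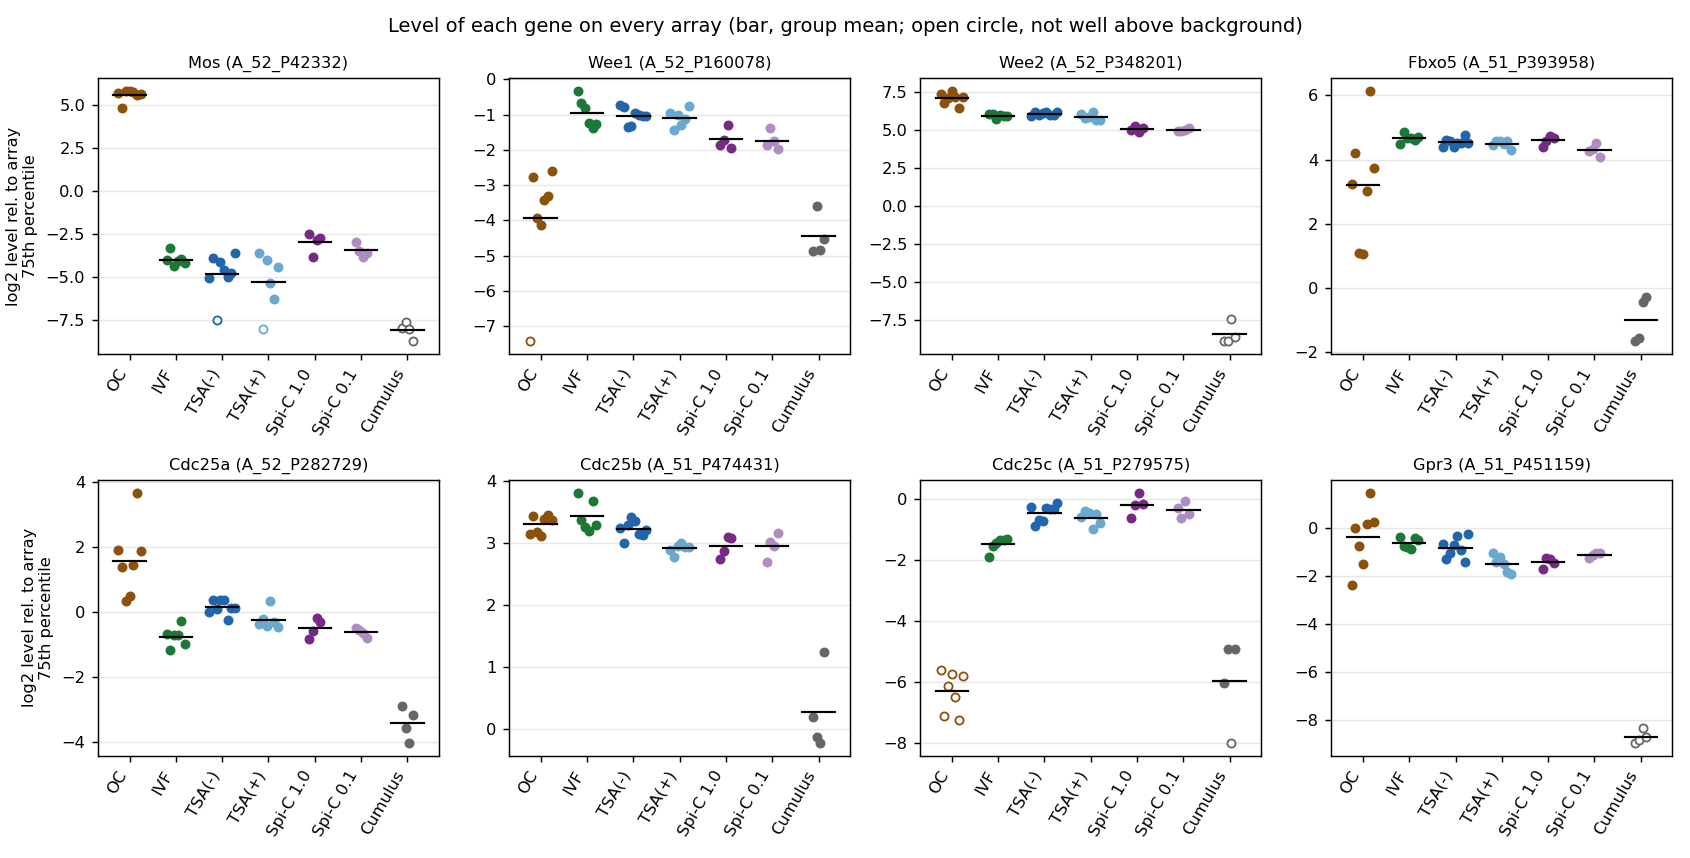
Level of the leading probe of each of the 8 genes (y axis, log2 relative to the 75th percentile of the array) on all 39 arrays by group (x axis), with one point per array, open circles for spots not well above background and a bar at the group mean. Mos stands between 4.86 and 5.84 in OC and at or below −2.47 on every other array, whereas Cdc25c shows the opposite step between OC and the 2-cell embryos.

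Mos, the gene of metaphase II arrest that was measured, showed the largest step from OC to IVF among the 8 genes. In OC, Mos lay at 4.86 on its lowest array, with a median of 5.74 and a highest value of 5.84. In IVF it lay between −4.35 and −3.29, with a median of −4.04. In TSA(-) it lay between −7.49 and −3.59 (median −4.67), and in TSA(+) between −8.02 and −3.62 (median −4.87). OC arrays were thus all far above the embryo arrays, and the spread was widest in the TSA groups, where the lowest array of each was not well above background. The difference from OC was −9.59 ± 0.54 (SE) on the log2 scale in IVF, 773-fold lower, with an adjusted p of 8.78e-16, and −10.43 ± 0.50 in TSA(-), 1377-fold lower, with an adjusted p of 1.74e-17. Within each of the 4 scan days that held both groups, IVF minus OC for Mos was between −9.91 and −8.85. Mos was not well above background on any Cumulus array, with values of −7.95, −7.65, −8.03 and −8.75. On the main scale OC stood at least 13147-fold higher, and under normexp the log2 difference was 9.36.

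Fbxo5, the EMI1 gene, did not follow Mos. Its level in OC ranged from 1.06 to 6.14 around a median of 3.24, whereas IVF arrays lay between 4.48 and 4.85 and TSA(-) arrays between 4.38 and 4.77. The embryo groups were tight, and the OC range contained both of them. Fbxo5 was higher than OC by 1.46 ± 0.48 in IVF (adjusted p = 0.00826) and by 1.33 ± 0.45 in TSA(-) (adjusted p = 0.00903). The IVF call was lost under 16 of 26 other settings and the TSA(-) call under 18 of 28, for IVF with the slide as a block (adjusted p = 0.131), with the median of each array as the scale (0.157) and without OC replicate 3 (0.0276) or 4 (0.0277). Leaving out single arrays kept the IVF difference between 1.099 and 1.94. On the Cumulus arrays Fbxo5 lay at −1.67, −1.57, −0.45 and −0.28, below every oocyte and embryo array, and OC was higher by 4.20 ± 0.54 (adjusted p = 5.45e-08).

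Of the inhibitory kinases, Wee2 lay lower and Wee1 higher in 2-cell embryos than in oocytes on the main scale. Wee2, the germ cell form, lay between 6.45 and 7.55 in OC (median 7.15), between 5.73 and 6.06 in IVF (median 5.95) and between 5.93 and 6.19 in TSA(-) (median 6.03). No IVF or TSA(-) array reached the lowest OC array. Wee2 differed from OC by −1.13 ± 0.19 in IVF, 2.19-fold lower (adjusted p = 4.69e-06), and by −1.01 ± 0.18 in TSA(-) (adjusted p = 7.98e-06), but after quantile normalization the differences turned to 1.05 and 1.34, both past the threshold. On the Cumulus arrays Wee2 gave −8.88, −8.83, −7.39 and −8.58, none well above background. On the main scale OC was at least 45438-fold and TSA(-) at least 22556-fold higher. Under normexp the log2 differences were 10.78 and 9.98.

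Wee1, the form of dividing somatic cells, lay between −7.44 and −2.60 in OC (median −3.43), between −1.37 and −0.33 in IVF (median −1.03) and between −1.36 and −0.74 in TSA(-) (median −1.02). Every embryo array was above every OC array. The lowest OC value belonged to replicate 1, where the spot was not well above background. Wee1 was higher than OC by 2.99 ± 0.46 in IVF, 7.97-fold (adjusted p = 1.17e-06), and by 2.91 ± 0.43 in TSA(-), 7.51-fold (adjusted p = 5.13e-07). Leaving out OC replicate 1 gave 2.41 for IVF, and normexp gave 1.297 for IVF and 1.21 for TSA(-), both still called. Within scan days the IVF difference was between 2.09 and 3.65. The Cumulus arrays gave −4.87, −3.58, −4.84 and −4.52, within the range of OC, and the OC difference of 0.51 from Cumulus was not called (95% confidence interval −0.55 to 1.57), though it was with normexp (1.03).

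The CDC25 phosphatases, which activate CDK1, differed from each other. Cdc25c was not well above background on any OC array with either probe, and was on every embryo array with both. Its leading probe (A_51_P279575) lay between −7.27 and −5.61 in OC (median −6.12), between −1.91 and −1.32 in IVF (median −1.40) and between −0.89 and −0.14 in TSA(-) (median −0.33). On the main scale IVF stood at least 28.1-fold above OC and TSA(-) at least 57.5-fold, with adjusted p of 2.02e-13 and 3.28e-16. The second probe (A_52_P25599) gave 10.8-fold and 23.9-fold on that scale, with adjusted p of 2.13e-09 and 7.61e-13. For this probe the bound equalled the fold itself. With normexp as the background correction the IVF differences were 1.39 and 0.018, the latter no longer called (adjusted p = 0.919).

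Cdc25a, a phosphatase of the mitotic cycle, went the other way. It lay between 0.34 and 3.68 in OC (median 1.44), between −1.17 and −0.29 in IVF (median −0.70) and between −0.23 and 0.39 in TSA(-) (median 0.14). IVF was below all OC arrays and TSA(-) overlapped them at the edge. Cdc25a was lower than OC by 2.34 in IVF (−2.34 ± 0.33, adjusted p = 2.97e-07), 5.05-fold, and by 1.43 in TSA(-) (−1.43 ± 0.31, adjusted p = 0.000131), 2.69-fold.

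The 3 probes of Cdc25b, the phosphatase known to be needed for the oocyte to leave prophase, disagreed on the step from oocyte to embryo. The leading probe (A_51_P474431) lay between 3.11 and 3.45 in OC and between 3.20 and 3.81 in IVF, and its difference of 0.13 ± 0.17 was not called on the main scale (95% confidence interval −0.21 to 0.48), was 1.24 after quantile normalization and was −0.54 relative to the median of each array, both past the threshold. The second probe (A_52_P612382) lay between 0.17 and 1.52 in OC and between 2.24 and 2.99 in IVF, higher by 2.00 ± 0.20 (adjusted p = 5.36e-10). The third (A_52_P615877) was well above background on 1 of 7 OC arrays and on every embryo array, and IVF was higher by 3.54 ± 0.36 (adjusted p = 6.26e-10), but by 0.29 with normexp (adjusted p = 0.0862). For TSA(-) the third probe gave 2.37 ± 0.34 (adjusted p = 3.12e-07), which turned to −0.59 with normexp. The direction for Cdc25b as a gene was therefore not settled, and where each probe lies in the transcript was not analysed here.

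Gpr3, the receptor of prophase arrest, lay between −2.39 and 1.47 in OC (median −0.0045), between −0.88 and −0.36 in IVF (median −0.62) and between −1.42 and −0.24 in TSA(-) (median −0.81). The OC range contained all IVF and TSA(-) arrays. The difference of −0.23 ± 0.37 in IVF and of −0.44 ± 0.34 in TSA(-) from OC was not called (95% confidence intervals −0.98 to 0.53 and −1.14 to 0.27). Relative to the median of each array, Gpr3 differed from OC by −0.90 in IVF (adjusted p = 0.0319) and by −1.09 in TSA(-), which was then called (adjusted p = 0.00622). The Cumulus arrays gave −8.95, −8.83, −8.34 and −8.70, none well above background, and OC stood at least 309-fold and TSA(-) at least 228-fold higher on the main scale. With normexp these log2 differences were 3.81 and 3.28, still called.

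**Figure D2:**
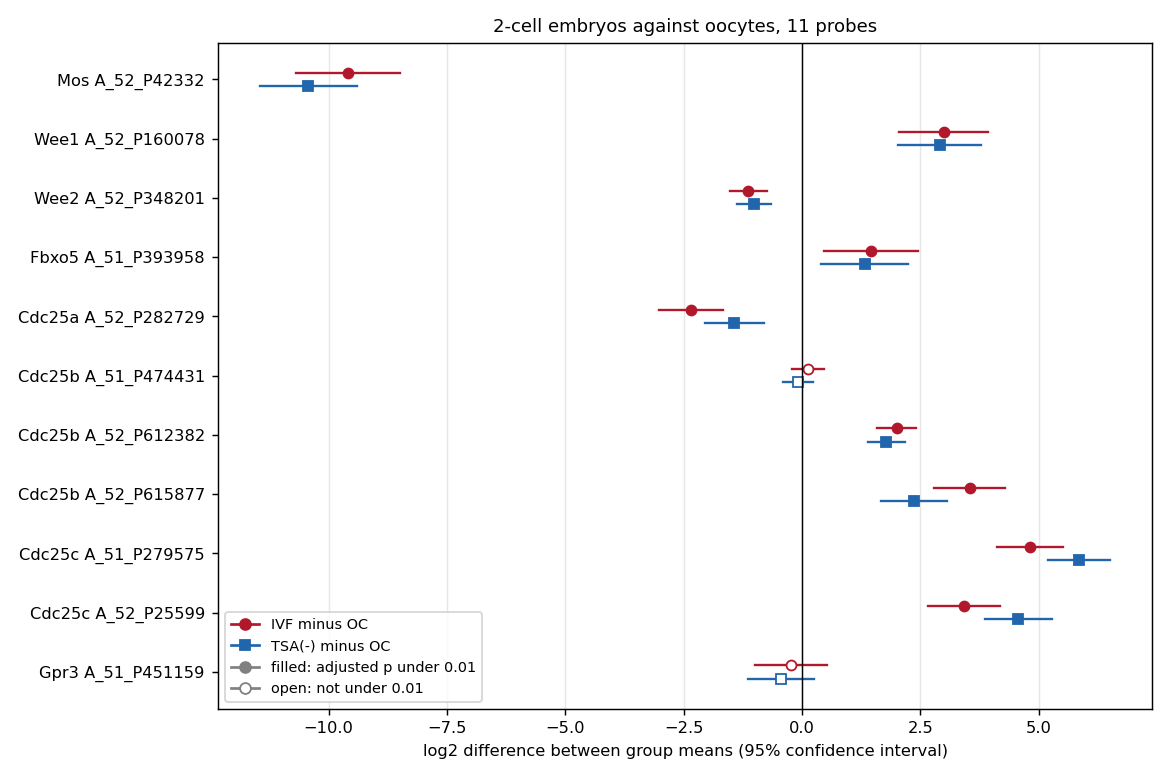
Log2 difference from OC (x axis) with its 95% confidence interval for each of the 11 probes (y axis), for IVF (circles) and TSA(-) (squares), filled where the adjusted p was under 0.01. Mos lies near −10, both Cdc25c probes lie above 3, and the leading Cdc25b probe and Gpr3 lie across 0.

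In all, 9 of the 11 probes were called in IVF against OC, 6 higher and 3 lower, against 66% of all probes tested (23.3% higher and 42.7% lower). TSA(-) against OC also gave 9, 6 higher and 3 lower, where 70.2% of all probes were called (23.5% higher and 46.8% lower). For 8 of the 11 probes the IVF and OC ranges did not overlap, against 51.8% of all probes, and for TSA(-) and OC this held for 7, against 48.3%. The median difference over the 11 probes was 1.46 for IVF and 1.33 for TSA(-), and over all probes it was −0.88 and −1.002. Relative to that shift, IVF minus OC was −8.72 for Mos, −0.26 for Wee2, −1.46 for Cdc25a, 0.65 for Gpr3 and 1.01 for the leading Cdc25b probe. The shift over all probes in IVF against OC was −0.29 after quantile normalization, −1.55 relative to the median of each array and −1.28 with normexp, and the lower share of probes above background in OC moved with these comparisons. Its part in them was not tested.

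**Figure D3:**
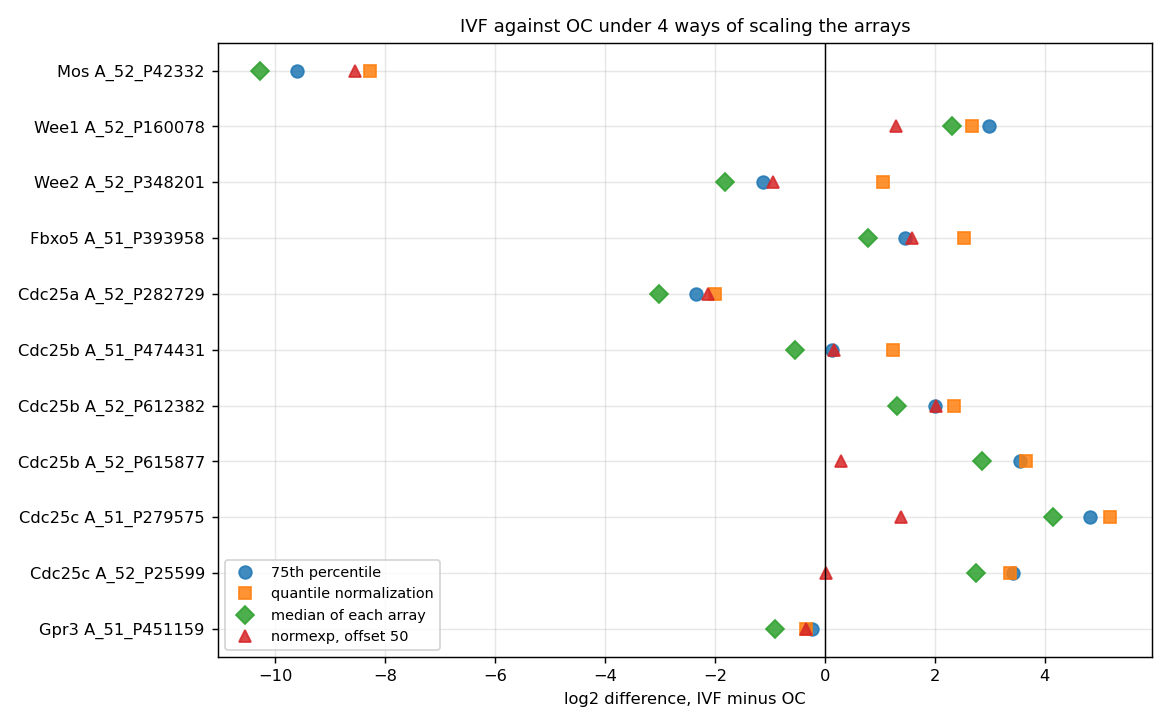
Log2 difference of IVF minus OC (x axis) for each of the 11 probes (y axis) under 4 ways of scaling the arrays. Mos and Cdc25a stay below 0 and Wee1, Fbxo5 and both Cdc25c probes above it under all 4, whereas Wee2 crosses 0 after quantile normalization and the leading Cdc25b probe relative to the median.

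The OC arrays differed among themselves for some of these genes more than any embryo group did. The SD over the 7 OC arrays was 1.78 for Fbxo5, 1.64 for Wee1, 1.27 for Gpr3 and 1.11 for Cdc25a, against 0.34 for Mos, 0.37 for Wee2 and 0.14 for the leading Cdc25b probe. OC replicate 6 had the highest level on 6 of the 11 probes: 6.14 for Fbxo5, 3.68 for Cdc25a, 1.47 for Gpr3 and all 3 probes of Cdc25b. It had the lowest level on 3 others, those of Wee2 and both of Cdc25c, and its 75th percentile of intensity was 512.31, against 271.3 to 412.69 on the other OC arrays. Replicates 3 and 4 had the lowest Fbxo5 levels, 1.08 and 1.06, and the lowest Cdc25a levels, 0.34 and 0.49. The summed level of the cumulus and granulosa markers was 1.05 on replicate 6, 0.76 on replicate 3 and 2.00 on replicate 4. It was 0.58 to 1.68 on the other OC arrays, and its part in the spread of Fbxo5 was not tested. Without replicate 6, Fbxo5 was higher in IVF than in OC by 1.94 (adjusted p = 3.7e-05).

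**Figure D4:**
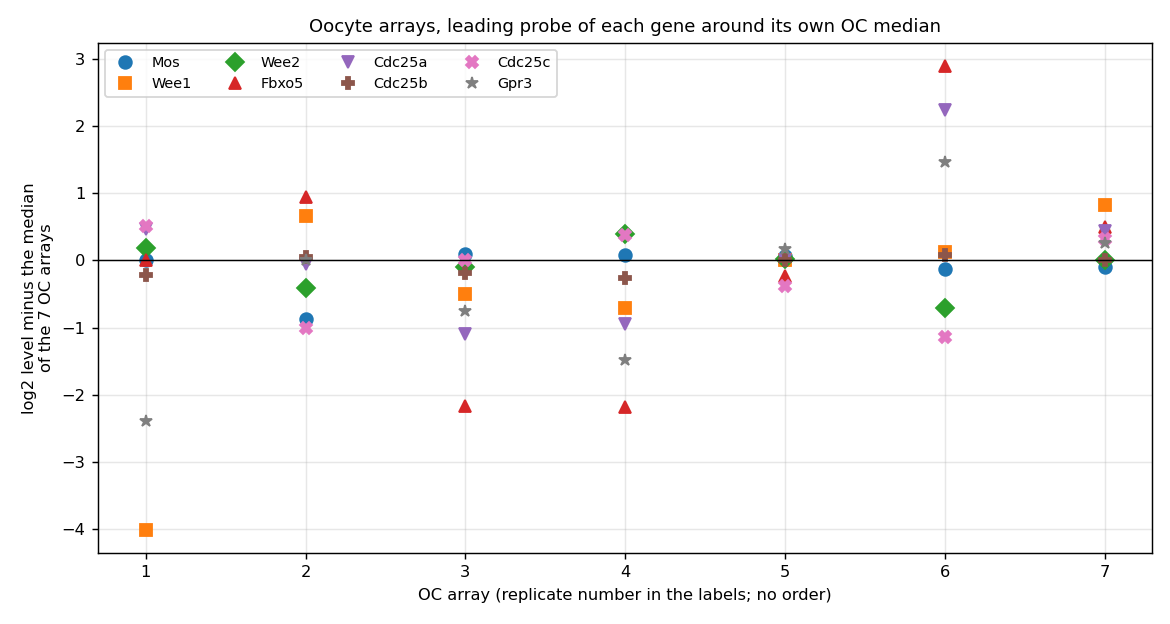
Level of the leading probe of each gene on the 7 OC arrays (x axis, replicate number) minus the median of that probe over the 7 arrays (y axis, log2). Fbxo5, Cdc25a and Gpr3 stand high together on replicate 6, and Fbxo5, Cdc25a and Gpr3 lie below their medians on replicates 3 and 4, while Mos and Wee2 stay within 1 of theirs.

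In the donor cumulus cells 6 of the 8 genes were lower than in oocytes. OC was higher on 8 of the 11 probes and lower on none, against 67.8% of all probes called (44.4% higher and 23.4% lower), and the same number had ranges without overlap, against 65.2%. TSA(-) was higher on all 11 without overlap, against 54.9% of all probes called (30.5% higher and 24.5% lower) and 48.6% without overlap. The probes not called between OC and Cumulus were that of Wee1 and both of Cdc25c, whose leading probe was well above background on 3 of 4 Cumulus arrays, at −6.05, −4.93, −8.01 and −4.92. TSA(-) embryos, which carry a cumulus nucleus in oocyte cytoplasm, exceeded Cumulus by 5.52 ± 0.38 for the leading Cdc25c probe (adjusted p = 9.12e-14), by 3.42 ± 0.50 for Wee1 (adjusted p = 6.93e-07) and by at least 9.55-fold for Mos, whose call was lost with normexp (0.33, adjusted p = 0.167).

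The comparison of SCNT with IVF embryos asks which genes differ at the 2-cell stage between these ways of making an embryo. For SCNT the oocyte was enucleated, injected with a nucleus, activated with strontium and kept in cytochalasin B. These steps cannot be told apart from the origin of the genome. The summed level of 6 measured 2-cell embryo markers was 7.34 to 7.81 in IVF and 5.48 to 6.82 in TSA(-). Its part in the differences below was not tested. In TSA(-) against IVF, limma called none of the 11 probes, against 18.8% of all probes (8.49% higher and 10.3% lower). Of the 11, 4 had an unadjusted p under 0.05, and Tukey's HSD called 0. Those 4 were Cdc25a, both Cdc25c probes and the third Cdc25b probe. Tukey's HSD and limma here both took the spread from the OC and Cumulus arrays too. For Cdc25a the SD was 1.11 in OC, 0.30 in IVF and 0.22 in TSA(-). Cdc25c lay higher in TSA(-) by 1.03 ± 0.33 with the leading probe, without overlap between the groups (adjusted p = 0.0191), and by 1.15 ± 0.36 with the second (adjusted p = 0.0169). Cdc25a lay higher by 0.91 ± 0.32, also without overlap (adjusted p = 0.0329), and the third Cdc25b probe lower, at −1.18 ± 0.35 (adjusted p = 0.0119). The leading Cdc25c difference was between 0.92 and 1.24 within the 4 scan days that held both groups, and that of Cdc25a between 0.75 and 1.104. Both passed the threshold in a fit of the 2-cell groups alone, a setting chosen after seeing the data, with adjusted p of 2.56e-06 for Cdc25c and 1.28e-05 for Cdc25a. That fit called 4 of the 11 probes, against 26.1% of all probes, as did the fit of TSA(-) and IVF arrays alone, against 20.9%. Non-overlapping ranges were found for 2 of the 11 probes, against 14.8% of all probes.

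**Figure D5:**
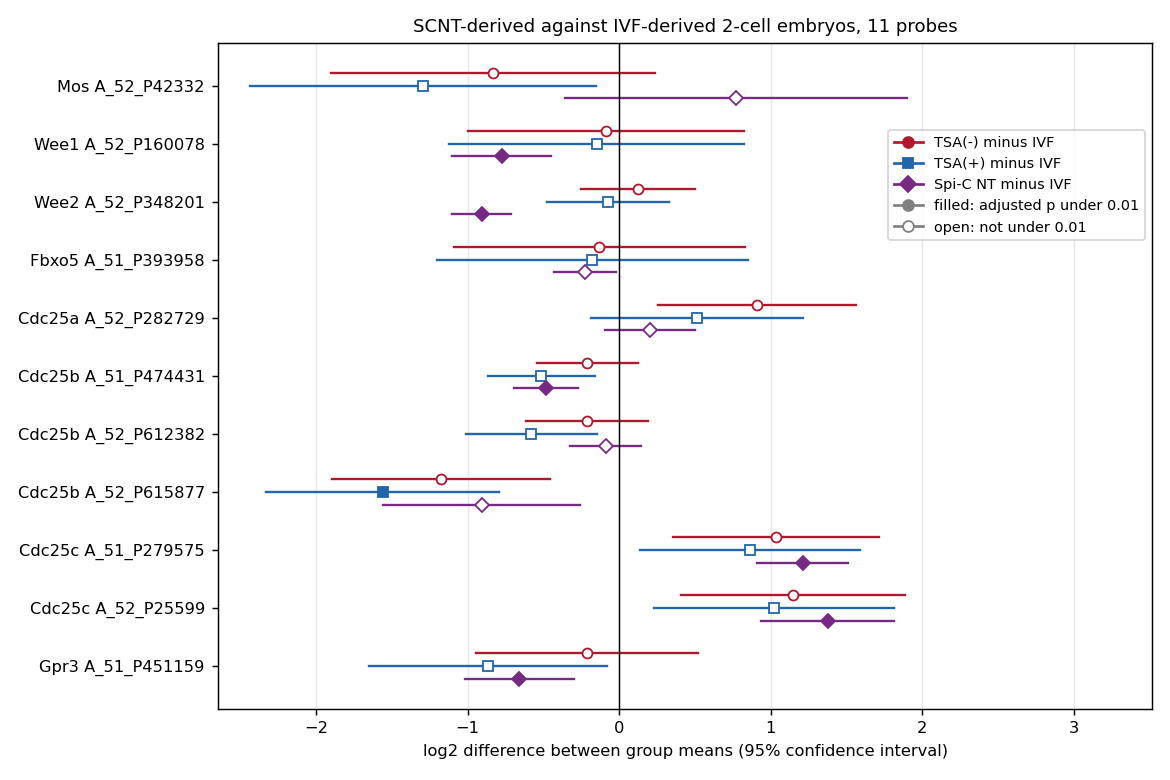
Log2 difference from IVF (x axis) with its 95% confidence interval for the 11 probes (y axis), for TSA(-) (circles), TSA(+) (squares) and Spi-C NT (diamonds), filled where the adjusted p was under 0.01. Both Cdc25c probes lie to the right of 0 in all 3 groups of SCNT embryos and the third Cdc25b probe to the left, and the intervals for Spi-C NT come from a fit without OC and Cumulus arrays.

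The TSA(+) embryos were set against the same IVF arrays. Of the 11 probes 1 was called, against 18.9% of all probes (7.83% higher and 11.1% lower), and 4 had ranges without overlap, against 20.3%. The probe called was the third of Cdc25b, at −1.56 ± 0.38 (adjusted p = 0.00209), 2.95-fold lower, with levels from −5.49 to −3.42 in TSA(+) and from −3.72 to −2.14 in IVF. The call was lost after quantile normalization (adjusted p = 0.0631) and with the slide as a block (adjusted p = 0.0135). The other Cdc25b probes gave −0.51 ± 0.17 (adjusted p = 0.0257) and −0.58 ± 0.21 (adjusted p = 0.0379). Gpr3 lay between −1.91 and −1.03 in TSA(+), below all IVF arrays, at a difference of −0.87 ± 0.38 (adjusted p = 0.0908). In the fit of the 2-cell groups alone, where 27% of all probes were called, 7 of the 11 were called, 3 higher (Cdc25a and both of Cdc25c) and 4 lower (Gpr3 and the 3 of Cdc25b).

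Between TSA(+) and TSA(-), which asks what the inhibitor changed, limma called none of the 11 probes, against 0.137% of all probes (0.043% higher and 0.0936% lower). Of the 11, 0 had an unadjusted p under 0.05, and Tukey's HSD called 0. The 11 differences lay between −0.65 (Gpr3) and −0.046 (Fbxo5), all below 0 on this scale, though 6 of them changed sign under at least 1 other setting. The widest 95% confidence intervals were those of Mos (−1.53 to 0.61) and Fbxo5 (−1.01 to 0.91). Narrower ones included those of Wee2 (−0.57 to 0.18) and the leading Cdc25b probe (−0.64 to 0.03). In this fit each probe has a single spread shared with the OC, IVF and Cumulus arrays. The SD of Fbxo5 was 1.78 in OC, 0.12 in TSA(-) and 0.11 in TSA(+), so its interval is wider than the TSA arrays alone would give.

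Spi-C NT embryos were compared with TSA(-) embryos, which received no mRNA. No group was injected without Spi-C mRNA, so the mRNA and the injection itself cannot be told apart. On its own 2 probes, Spic averaged 1.55 and 1.01 in Spi-C NT, 2.09 and 1.496 in TSA(-) and 3.99 and 3.38 in IVF, so the injected mRNA was not seen as a higher level. Of the 11 probes 3 were called, all lower, against 20.9% of all probes (11.7% higher and 9.24% lower), and 1 had ranges without overlap, against 9.45%. Wee2 lay at 5.02, 5.27, 4.86 and 5.13 with 1.0 mg/ml and at 4.90, 4.94, 5.01 and 5.10 with 0.1 mg/ml, below every IVF, TSA(-) and TSA(+) array. It was lower than in TSA(-) by 1.03 (−1.03 ± 0.09, adjusted p = 8.77e-10), 2.04-fold, and lower than in IVF by 0.91 (−0.91 ± 0.09, adjusted p = 1.18e-08). Before scaling, the Wee2 intensities overlapped, at 68895 to 88191 in Spi-C NT and 73281 to 107215 in TSA(-). The 75th percentile used for scaling was 2115.4 to 2666.5 on Spi-C NT arrays and 1204.1 to 1470.5 on TSA(-) arrays. The part of the scaling in the Wee2 difference was not tested. The summed level of the 7 oocyte markers was also lower, at 8.51 to 8.80 in Spi-C NT, 9.03 to 9.26 in TSA(-) and 9.26 to 9.40 in IVF, with all 7 well above background on every array, and its part in the Wee2 difference was not tested. By their means 5 of the 7 markers lay lower in Spi-C NT than in TSA(-), such as Gdf9 at 6.28 and 6.90, and Zp3 (1.89 and 1.24) and Nlrp5 (2.57 and 2.27) lay higher. Wee1 was lower than in TSA(-) by 0.69 (−0.69 ± 0.15, adjusted p = 0.000679), and Cdc25a by 0.71 (−0.71 ± 0.13, adjusted p = 0.000179). Cdc25a gave −0.81, −0.59, −0.18 and −0.31 with 1.0 mg/ml and −0.49, −0.54, −0.65 and −0.78 with 0.1 mg/ml, overlapping the range of IVF, from which it differed by 0.20 (95% confidence interval −0.09 to 0.50). Mos lay higher than in TSA(-) by 1.60 ± 0.51 without passing the threshold (adjusted p = 0.0172).

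Against IVF, 6 of the 11 probes were called in Spi-C NT, 2 higher and 4 lower, against 36.2% of all probes (18.8% higher and 17.4% lower), and 5 had ranges without overlap, against 24.7%. The 2 higher were those of Cdc25c, by 1.21 ± 0.15 (adjusted p = 1.26e-07) and 1.38 ± 0.21 (adjusted p = 6.35e-06), 2.32-fold and 2.60-fold. The 4 lower were Wee1, Wee2, the leading Cdc25b probe at −0.48 ± 0.10 (adjusted p = 0.000377, and 0.0239 after quantile normalization, where the call was lost) and Gpr3 at −0.66 ± 0.18 (adjusted p = 0.00307). The day of scanning and the software version moved with every one of these Spi-C differences, and their part cannot be told apart from that of the injection.

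Between the 2 concentrations limma called none of the 11 probes, against 0.00506% of all probes. Of the 11, 1 (Fbxo5) had an unadjusted p under 0.05, and Tukey's HSD called 0. No probe had ranges without overlap, against 3.34% of all probes. The differences of 1.0 minus 0.1 mg/ml lay between −0.32 and 0.72, with 95% confidence intervals reaching from −1.01 to 1.99.

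Of the other genes of the pathway, 45 were listed (cyclin B and CDK1 with their partners, the Greatwall branch, the anaphase-promoting complex and its checkpoint, MAP kinase and RSK, cyclic AMP signalling), and all were measured, by 69 probes. In IVF against OC 52 of the 69 probes were called, 14 higher and 38 lower, or 75.4% against 66% of all probes, with a median difference of −1.44 against −0.88 over all probes. Cdk1 rose by 5.98 ± 0.29 (63.2-fold) and Ensa, a substrate of Greatwall kinase that was well above background on 4 of 7 OC arrays, by 5.02 ± 0.66, whereas the checkpoint kinase gene Bub1b differed by −7.59 ± 0.17 (193-fold lower) and the cyclin gene Ccnb1 by −4.56 ± 0.19. In TSA(-) against OC the same 4 genes led 55 called probes, 14 higher and 41 lower, or 79.7% against 70.2%. A second Cdk1 probe, chosen after its values were seen, was well above background on no OC array and 1 IVF array and was not called (−0.041).

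Among the embryo groups fewer probes of the list were called, 21.7% of the 69 in TSA(-) against IVF (18.8% of all probes), 30.4% in TSA(+) against IVF (18.9%), 24.6% in Spi-C NT against TSA(-) (20.9%) and 40.6% in Spi-C NT against IVF (36.2%). TSA(-) against IVF gave 15, 5 higher and 10 lower, led by Rps6ka2 (a ribosomal S6 kinase of the MOS pathway), at least 5.31-fold higher, and Adcy3 (an adenylyl cyclase), higher by 1.77 ± 0.32, and by 2 probes of Gpr12, a close relative of Gpr3, at −1.92 ± 0.52 and −1.74 ± 0.50. TSA(+) against IVF gave 21, 6 higher and 15 lower, led by Rps6ka2, at least 4.95-fold higher, Npr2 (a natriuretic peptide receptor) at 1.80 ± 0.45 and the same Gpr12 probes at −2.51 ± 0.53 and −2.41 ± 0.56. Between TSA(+) and TSA(-) limma called 0 of 69, with 8 at an unadjusted p under 0.05, and between the Spi-C concentrations 0, with 1. Spi-C NT against TSA(-) gave 17, 7 higher and 10 lower, led by Gnas (the stimulatory G protein, well above background on 2 of 8 TSA(-) arrays) at 2.26 ± 0.22, Ywhah (a 14-3-3 protein) at 0.65 ± 0.11, Camk2g (a calcium-dependent kinase of egg activation) at −0.82 ± 0.10 and Ensa at −0.81 ± 0.21. Spi-C NT against IVF gave 28, 10 higher and 18 lower. Rps6ka2, at least 5.42-fold higher, Adcy3 at 1.85 ± 0.26, Camk2g at −1.64 ± 0.11 and Cks2 (a CDK1 partner) at −1.57 ± 0.11 led them. Rps6ka2 was well above background on 6 of 8 TSA(-), 5 of 6 TSA(+), 5 of 8 Spi-C NT and 0 of 6 IVF arrays. Its mean level was −5.93 in TSA(-) and −8.34 in IVF. The bounds for Rps6ka2 equal the folds themselves, hold on the main scale and leave out the spread between arrays.

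Against the donor cells 56 of the 69 probes were called for OC, 42 higher and 14 lower, or 81.2% against 67.8% of all probes, and 50 for TSA(-), 31 higher and 19 lower, or 72.5% against 54.9%. Pde3a, the phosphodiesterase that ends the cyclic AMP signal, was at least 415-fold higher in OC and at least 229-fold higher in TSA(-), Mastl (Greatwall kinase) was 322-fold higher in OC and Ccnb3 at least 89.3-fold higher in TSA(-). Npr2, the receptor by which cumulus cells supply cyclic GMP to the oocyte, was at least 526-fold lower in OC and 142-fold lower in TSA(-). Rps6ka2 was at least 102-fold lower in OC. These bounds hold on the main scale and leave out the spread between arrays.

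As a description over the 39 arrays, 19957 probes were searched for the other genes with the probe most correlated with the leading probe of each of these 8. They were Omt2b (r = 0.999) and Oog3 (0.998) for Wee2, Piwil1 (0.986) and Bmx (0.980) for Gpr3, Gcsh and Prr11 (both 0.981) for Cdc25c, Prmt2 (0.979) and Fbxl6 (0.976) for Mos, Tdrd1 (0.977) and Olah (0.973) for Cdc25b, Ecpas (0.951) and Mllt3 (0.944) for Fbxo5, Maco1 (0.946) and Dot1l (0.938) for Cdc25a, and Cd2bp2 (0.928) and Smarcc1 (0.927) for Wee1. The arrays share groups and batches.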

How the data were processed

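RNA from pooled oocytes, embryos or cumulus cells had been amplified linearly in 2 rounds, labelled with Cy3 and hybridized to 1-colour Agilent arrays. What the authors deposited for each array is the scanner output, whose processed intensity comes from Agilent Feature Extraction (9.5.3.1 in the submitters' notes) with background subtracted and spatial trends removed, and a table of log2 values by the authors, of which 95.3% lay within 0.05 of the log2 intensity less the 75th percentile of the array and the median of the probe (median absolute difference 0.0054), and which served as an alternative. The deposited flags, coded values other than measurements, mark spots well above background, saturated spots and outliers. Outlier spots (5238) were left out, spots of 1 probe were averaged, and a probe entered the tests if any IVF or SCNT array gave it an intensity of 10 or more (39517 of 41174).

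Groups come from the labels. Linear models with moderated variances (limma 3.58.1, R 4.3.3) were fitted to OC, IVF, TSA(-), TSA(+) and Cumulus arrays for the TSA comparisons, and to the 2-cell groups for the Spi-C comparisons, with Benjamini-Hochberg adjustment over all probes. The step was tested on simulated data, where many of the changes put in were not called, so a probe that is not called may still differ. Where a group was not well above background on any array, a fold is a bound. It was taken against the higher of the dim probe's own signal and the lowest signal well above background on each array. Such a bound holds on the main scale only, leaves out the spread between arrays and can exceed the fold found with normexp. Symbols and promoters come from RefSeq (GRCm38.p6). 23374 probes have a symbol. The leading probe of a gene had the highest mean of the 7 group means. The genes and lists were chosen with earlier results of these data known. Named pathway genes are the 2 called probes with the largest rise and the 2 with the largest fall in each comparison. No array value of the 11 probes was missing or saturated. The number of arrays limits the precision. Other settings were quantile normalization, the median as scale, normexp (offset 50), the authors' values, 2 filters on dim probes, the 2 groups alone, Tukey's HSD (statmod 1.5.0 was used for correlations within slides), a wider threshold of 0.05 on the adjusted p, a 2-fold minimum, blocks for slide, scan day and replicate number, and leaving out each array. Figures were drawn with matplotlib 3.10.9.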

Additional observations from a re-analysis of the deposited data

Results flagged for a closer look

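Each of the 11 probes was examined in each of the 7 groups for a single array standing apart, by the gap to its nearest neighbour relative to the range of the group. Of 77 such sets, 6 had one, and chance gives about 1 in 20. Mos stood apart in 3 groups: low at 4.86 on OC replicate 2 (next 5.61), high at −3.29 on IVF replicate 2 (next −3.97) and low at −7.49 on TSA(-) replicate 3 (next −5.04), where the spot was not well above background. Wee1 was low at −7.44 on OC replicate 1 (next −4.14), also not well above background. Cdc25a was high at 0.33 on TSA(+) replicate 4 (next −0.19). The second Cdc25c probe was low at −3.09 on TSA(-) replicate 2 (next −1.97).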

How the results depend on the processing

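The numbers of probes called against OC and against Cumulus, between TSA(+) and TSA(-) and between the concentrations stayed within 1.5 times their main values under every setting run, the replicate block included, which called 8 for IVF against OC where Fbxo5 (1.52, adjusted p = 0.0118) fell out. The replicate numbers did not pair the arrays (highest correlation of deviations 0.152), and the block is given for that reason once.

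For TSA(-) against IVF the count of 0 (18.8% of all probes called) became 1 after quantile normalization (20.1%), 3 with normexp (26.1%), 1 with the filter on probes well above background (26%), 4 at an adjusted p under 0.05 (27.8%), 4 with the 2 groups alone (20.9%), 2 with the scan day as a block (16.7%) and 4 in the fit of the 2-cell groups (26.1%), and 0 to 2 with single arrays left out (2 without TSA(-) replicate 2, and 1 without TSA(-) replicate 5 or IVF replicate 3). For TSA(+) against IVF the count of 1 (18.9%) became 0 after quantile normalization (19.1%), 3 with normexp (26.1%), 4 at an adjusted p under 0.05 (29.2%), 6 with the 2 groups alone (22.2%), 3 with the scan day as a block (17.9%) and 7 in the fit of the 2-cell groups (27%). For Spi-C NT against TSA(-) the count of 3 (20.9%) became 5 relative to the median (20.2%), 6 at an adjusted p under 0.05 (31.2%) and 1 at 2-fold (8.74%), and against IVF the count of 6 (36.2%) became 2 at 2-fold (22.5%). The fits with fewer groups leave out the OC and Cumulus arrays, and the cause of these changes was not tested.

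Directions turned for Wee2 against OC after quantile normalization (1.05 in IVF and 1.34 in TSA(-)), for the leading Cdc25b probe (−0.54 in IVF relative to the median, and 1.15 after quantile normalization and 0.022 with normexp in TSA(-)), for the third Cdc25b probe in TSA(-) (−0.59 with normexp), for Fbxo5 in Spi-C NT against IVF (0.097 after quantile normalization), and for the leading Cdc25c probe in OC against Cumulus (0.84 with normexp, and −1.01 to 0.017 with single arrays left out). Gpr3 in IVF against OC went from −0.56 to 0.084 with single arrays left out, the latter without OC replicate 6. Of 110 pairs of probe and comparison, 42 were called under no setting, and 20 of these changed sign under at least 1. Dim probes, such as Cdc25c and the third of Cdc25b in OC, are limited by the signal over background.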
